A study of Mus musculus with 64 samples.

Results

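The genes described here are 10 targets that glucocorticoids are known to induce, namely Sgk1, Tsc22d3, Nfkbia, Cebpd, Cebpb, Bcl6, Klf9, Plin4, Fam107a and Sult1a1. They were picked by gene symbol, with earlier results of these data known. All 10 were found among 15697 genes of the prefrontal cortex, 15573 of the hippocampus and 16155 of the hypothalamus. In whole blood 7 were found among 8830 genes, and Plin4, Fam107a and Sult1a1 were not analysed there. The UCMS group held male BALB/c mice, 28 weeks old, put through Unpredictable Chronic Mild Stress (UCMS) over 9 weeks, a schedule of changing mild stressors that serves as a mouse model of depression. The control group held male BALB/c mice of the same age that were not stressed. Each brain region came from 8 UCMS and 8 control animals, and blood from 9 UCMS and 7 control animals, which made 64 libraries of total RNA from 17 animals. Tissue was collected 14 to 16 hours after the last stressor, between ZT12.5 and ZT14.5, so the levels are not those during a stressor. UCMS animals carry the labels S1 to S5, S7, S8, BS1 and BS2 (BS1 in blood only), whose prefixes the labels do not explain, and control animals the labels C1 to C8.

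Corticosterone, the adrenal stress hormone of mice, binds the glucocorticoid receptor Nr3c1 and, with higher affinity, the mineralocorticoid receptor Nr3c2. The bound receptor enters the nucleus and attaches as a dimer to DNA elements made of paired AGAACA-like elements, from which it raises transcription. Among its known targets are a kinase (Sgk1), brakes on inflammatory signalling (Tsc22d3, Nfkbia), transcription factors (Cebpd, Cebpb, Bcl6, Klf9) and effectors of lipid storage, cell shape and conjugation (Plin4, Fam107a, Sult1a1). In brain, many of these transcripts are known from glia and vessels as well as from neurons.

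RefSeq start-site windows of GRCm38.p6, from 250 bases before to 50 bases after a start, were matched for 9 of the 10 genes (19 windows among 32851). The full palindrome, AGAACA and TGTTCT with 3 bases of any kind between them, searched on both strands, was found in 3 of the 32851 windows (0.00913%), of which 1 belongs to Sgk1. A looser core, GNACA and TGTNC with the same spacing and N for any base, also matches inside every full palindrome. It was found in 0.475% of all windows and in 3 of the 19 windows, from 2 of the 9 genes, Sgk1 and Fam107a. Windows of neighbouring Fam107a starts overlap, so a stretch there is counted more than once. The single element AGAACA was found in 19.0% of all windows and in 8 of the 19 windows, from Sgk1, Fam107a, Tsc22d3, Bcl6 and Sult1a1. The sequences below show the best match of Sgk1 and of Fam107a and, for contrast, a single element of Tsc22d3, each 5′ to 3′ on the strand of the gene. Capitals mark the full palindrome in Sgk1, the core in Fam107a and the single element, read on the opposite strand, in Tsc22d3.
Sgk1: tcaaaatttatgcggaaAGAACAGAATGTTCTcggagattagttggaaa
Fam107a: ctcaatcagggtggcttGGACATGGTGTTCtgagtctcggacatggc
Tsc22d3: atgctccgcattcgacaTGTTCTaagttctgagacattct
The Sgk1 stretch is chr10:21993684-21993732 on the plus strand. Its match begins 189 bases upstream of a RefSeq start and, in the GENCODE M21 annotation, lies within 5 of 13 Sgk1 transcripts without touching an exon, so it is intronic in those 5. The Fam107a stretch is chr14:8309868-8309914 on the minus strand, and its match begins 118 bases upstream of a RefSeq start (120 bases for a second start close by). It is intronic in 1 of 4 annotated transcripts, begins 102 bases from the nearest annotated transcript start, and its last bases overlap a single element. The Tsc22d3 stretch is chrX:140600685-140600724 on the minus strand, with its match 185 bases upstream of a RefSeq start. These matches describe letters only, and binding was not measured.

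Values were normalized log2 levels, and the sequencing depth behind them is unknown, so precision rests on the spread between animals. Marker genes fitted the tissue labels by which of them were measured. The 5 hypothalamic peptide genes on the list were measured in hypothalamus, against 0 of 5 in prefrontal cortex and 1 of 5 in hippocampus. The 3 hippocampal genes were measured in hippocampus, and the summed level of erythroid genes was 18.3 to 18.4 in blood. Levels varied between libraries: the peptide gene Pmch ran from 0.452 to 7.329 in hippocampus. In hypothalamus the peptide gene Avp ran from 3.378 to 10.192 and the cortex gene Slc17a7 from 3.094 to 7.484. The part of dissection in this spread was not tested. Hemoglobin RNA set 9 brain libraries apart, with Hbb-bs above a log2 level of 12. They came from 4 animals: UCMS animals S7 (all 3 regions) and BS2 (hypothalamus), and control animals C1 (all 3 regions) and C7 (hippocampus and hypothalamus). Choroid plexus genes set 6 other brain libraries apart, with a summed log2 level above 9: UCMS animals S2 and S3 and control animals C5, C6 and C8 in hippocampus (10.22 to 12.81, against 5.78 to 8.23 in the other hippocampal libraries) and control animal C2 in prefrontal cortex (11.91, against 4.74 to 7.63). That prefrontal library also had the lowest summed level of cortex genes, 8.18 against 9.16 to 9.85 in the others. Differences that rest on these libraries are given with and without them. Relations with marker lists were computed with all libraries only. In bulk tissue, fewer cells of a type and less RNA per cell cannot be told apart.

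The level of the 10 genes differed widely by tissue. The tables were normalized separately, so the place of a gene among all genes of its own table is the safer guide. Klf9, a zinc finger factor that follows glucocorticoid and thyroid hormone, stood at percentile 97.0 of prefrontal genes, 96.7 of hippocampal and 94.4 of hypothalamic genes, and at percentile 15.8 in blood. Fam107a, which binds actin and shapes dendritic spines and astrocyte processes, stood between percentile 94.1 and 96.4 in the brain regions. Cebpb stood between percentile 85.8 and 92.9 in all 4 tissues. Cebpd, its relative, depended more on the region: its control mean was 6.16 ± 0.22 (SD, n = 8) in hippocampus, 5.54 ± 0.47 (n = 7) in blood, 5.07 ± 0.50 (n = 8) in hypothalamus and 4.59 ± 0.31 (n = 8) in prefrontal cortex. The hippocampal values lay above all prefrontal ones, while those of blood and hypothalamus overlapped. Sgk1 stood between percentile 65.8 and 68.8 in the brain regions and at percentile 25.8 in blood. Sult1a1 stood lowest in brain, at percentile 9.25 in prefrontal cortex and 16.6 in hippocampus, and in prefrontal cortex it was below the level needed for testing.

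**Figure D1:**
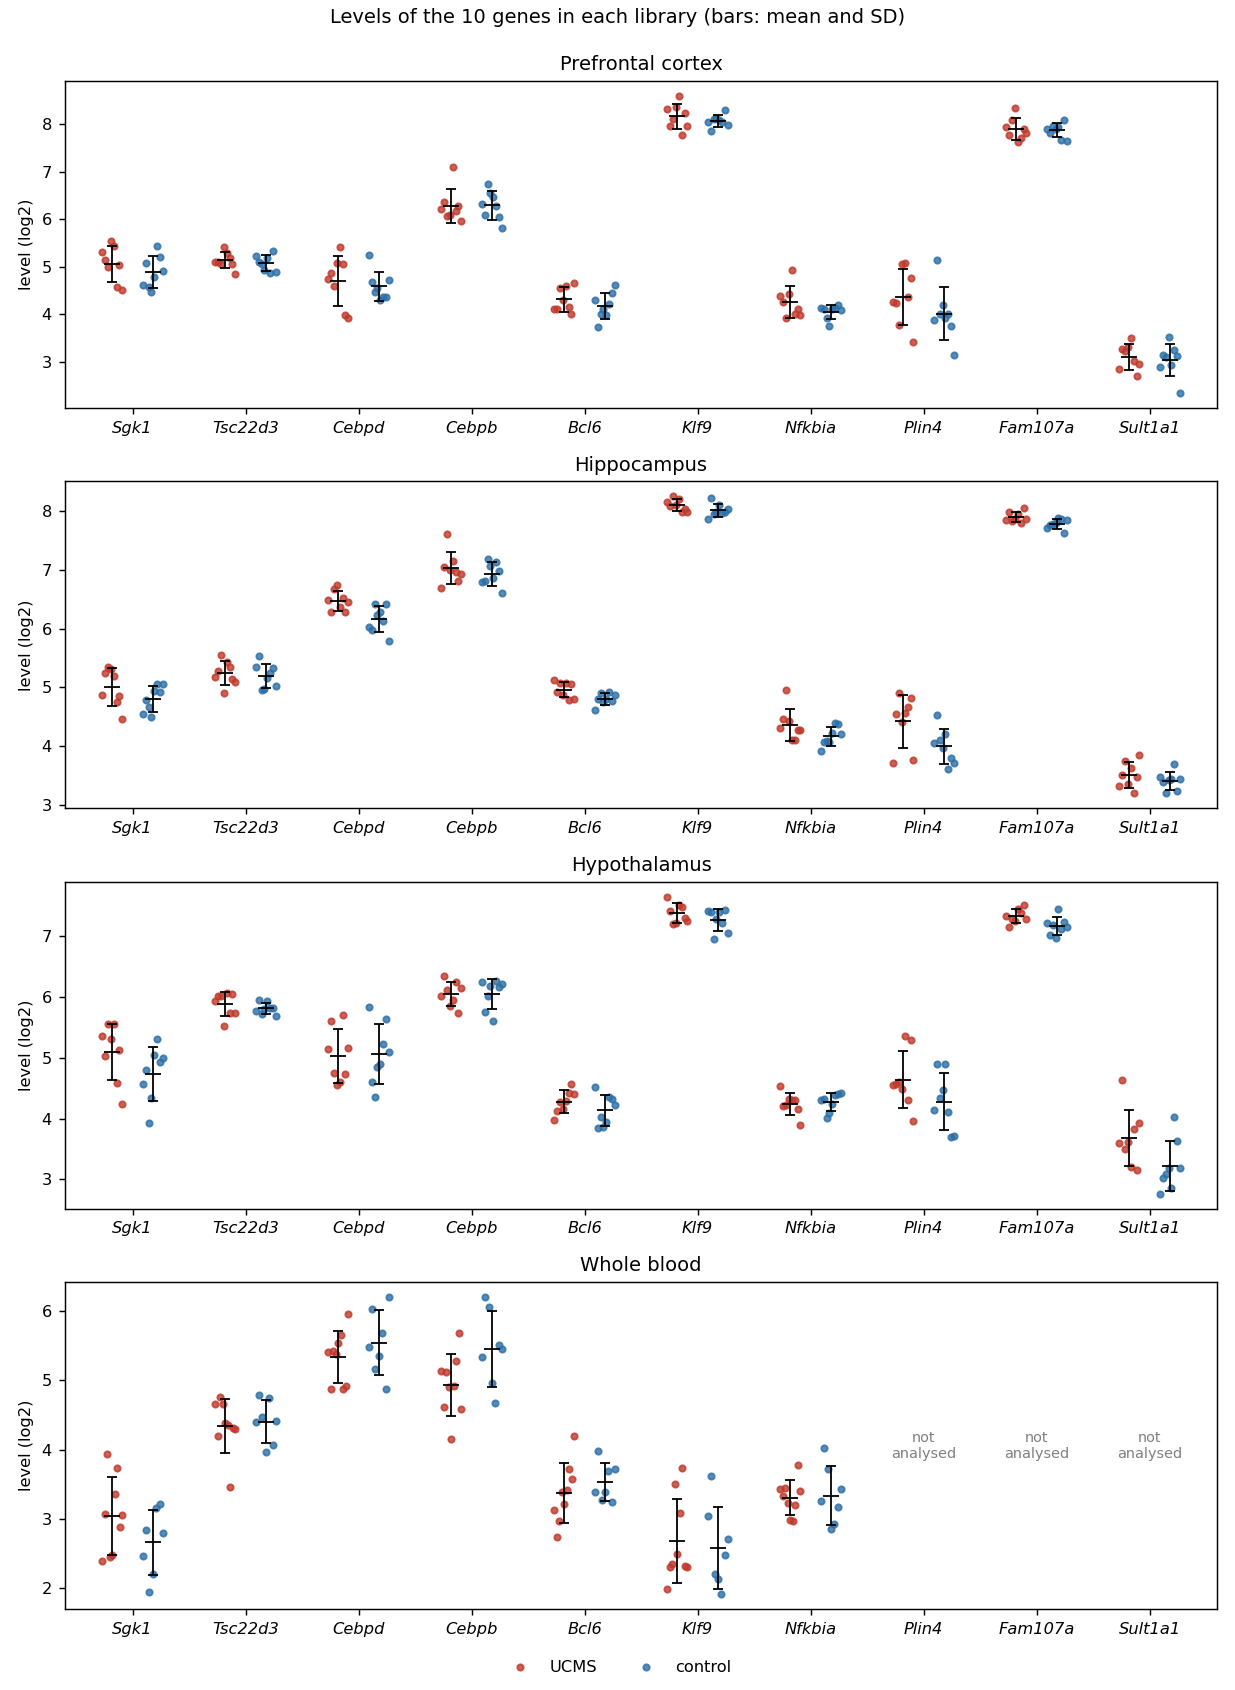
Log2 level of each gene in each library, by tissue, with UCMS (red) left of control (blue), 1 point per animal, and bars giving the mean and SD. UCMS and control points overlap for every gene in every tissue, and Klf9 is among the highest of the 10 genes in brain (control means 7.27 to 8.08) and the lowest in blood (2.59).

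UCMS and control animals were then compared in each tissue, to see whether chronic stress left these targets at another level. In the brain regions most of the 10 genes had a higher mean in UCMS animals, in hippocampus by 3.47% (Tsc22d3) to 34.5% (Plin4), but none passed the test. The mean was higher in UCMS for 8 of the 9 genes tested in prefrontal cortex, for 10 of 10 in hippocampus and for 7 of 10 in hypothalamus, while 52%, 50.1% and 50.5% of all genes tested had a higher mean in UCMS there. In blood 2 of 7 had a higher mean in UCMS, against 48.5% of all genes. The 10 genes share libraries and were chosen with earlier results of these data known. Counts of them, here and below, are therefore a description and not independent evidence. The median log2 difference of the set, UCMS minus control, was 0.12 for prefrontal cortex, where it was 0.0056 over all genes tested. It was 0.14 for hippocampus (0.00038 over all genes), 0.13 for hypothalamus (0.00075) and -0.061 for blood (-0.010).

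With limma and Benjamini-Hochberg adjustment over all genes of a table, 0 of the 10 genes passed an adjusted p of 0.05 in any tissue, and 0% of all genes did. Prefrontal cortex had 0 of 9 at an unadjusted p under 0.05 (2.18% of all genes). Hippocampus had 4 of 10 (Cebpd, Bcl6, Fam107a and Plin4; 2.95%), hypothalamus 2 of 10 (Fam107a and Sult1a1; 2.12%) and blood 1 of 7 (Cebpb; 10.8%). Without the hemoglobin-rich libraries, hippocampus kept 2 such genes, Cebpd and Bcl6 (3.14% of all genes), and hypothalamus had 1, Sgk1 (2.28%). Without UCMS animal BS2 the counts were 5 in hippocampus (3.29%) and 3 in hypothalamus (2.18%). Without the choroid-plexus-rich libraries (an alternative added after seeing the data) hippocampus had 3, Cebpd, Bcl6 and Fam107a (4.07%), from 6 UCMS and 5 control animals, and prefrontal cortex had 1, Plin4 (1.9%). For many of the differences below an exact permutation p (two-sided, over all splits of the animals of a tissue) is given. These exact p values were not adjusted for the number of tests. Limma's adjusted p, printed for some of the genes, was above 0.05 for all of them. The replicates are separate animals, per the labels.

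Sgk1 encodes a kinase that raises ion channel and transporter activity and has been studied as a mediator of corticosterone in the brain. In hypothalamus the lowest, median and highest levels were 4.25, 5.22 and 5.56 in UCMS animals, against 3.93, 4.86 and 5.31 in controls. The values overlapped: 6 of 8 UCMS animals lay above the control median and 3 above every control. The log2 difference was 0.36 (SE 0.21), with adjusted p = 1.0 by limma and an exact permutation p of 0.137. The difference was 0.20 (SE 0.13) in hippocampus and 0.18 (SE 0.17) in prefrontal cortex, with exact permutation p of 0.171 and 0.316, and 0.12 in prefrontal cortex without S4. In all 3 regions UCMS animals BS2 and S7 had the lowest and second lowest Sgk1 of the UCMS group. S7 was hemoglobin-rich in every region and BS2 in hypothalamus. Without the hemoglobin-rich libraries the hypothalamic means were 5.33 in UCMS (n = 6) and 4.74 in controls (n = 6), a difference of 0.59 (SE 0.20), still with adjusted p = 1.0 by limma. In blood Sgk1 ran from 2.39 to 3.94 in UCMS and from 1.95 to 3.21 in controls, with a difference of 0.38 (SE 0.25, exact permutation p = 0.172).

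Tsc22d3 encodes GILZ, a leucine zipper protein that holds back NF-kappaB and AP-1, and it is widely used as a readout of glucocorticoid receptor activity. Its differences were small: prefrontal cortex 0.058 (SE 0.083), hippocampus 0.049 (SE 0.098), hypothalamus 0.069 (SE 0.075) and blood -0.061 (SE 0.18). In hypothalamus, its highest brain region, levels ran from 5.53 to 6.07 in UCMS with a median of 5.97, against 5.70 to 5.95 with a median of 5.82 in controls. There 4 of 8 UCMS animals lay above every control, while the lowest value of all was also a UCMS animal, S4. In the same order, exact permutation p was 0.493, 0.636, 0.379 and 0.753.

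Nfkbia encodes IκBα, which keeps NF-kappaB in the cytoplasm. In prefrontal cortex its lowest, median and highest levels were 3.93, 4.19 and 4.94 in UCMS and 3.75, 4.12 and 4.20 in controls. There 4 UCMS animals lay above every control, and the other 4 lay below the control median, S8 narrowly (4.121 against 4.122). The difference was 0.20 (SE 0.12, exact permutation p = 0.145) in prefrontal cortex and 0.19 (SE 0.11, exact permutation p = 0.0942) in hippocampus. Each rests in part on 1 UCMS library: it was 0.10 in prefrontal cortex without S5 and 0.11 in hippocampus without S3. The difference was -0.028 (SE 0.082) in hypothalamus, where its sign turned to 0.048 without the hemoglobin-rich libraries, and -0.029 (SE 0.17) in blood.

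The transcription factor Cebpd, a C/EBP family member that acute-phase signals and glucocorticoids switch on, had the smallest p of the set, in hippocampus. There its lowest, median and highest levels were 6.27, 6.47 and 6.74 in UCMS, against 5.80, 6.18 and 6.42 in controls. All 8 UCMS animals lay above the control median and 5 above every control, while 5 controls lay below every UCMS animal, so the ranges still overlapped. The log2 difference was 0.31 (SE 0.093), or 24.3%, with an exact permutation p of 0.00653. By unadjusted p it ranked 23 among 14015 genes, and limma's adjusted p was 0.990. Without the hemoglobin-rich libraries the difference was 0.33 (SE 0.11), and without the choroid-plexus-rich ones 0.26 (SE 0.10). Elsewhere Cebpd differed by 0.12 (SE 0.20) in prefrontal cortex, -0.033 (SE 0.22) in hypothalamus and -0.20 (SE 0.20) in blood, with exact permutation p of 0.589, 0.889 and 0.347. The spread was wide in those tissues: in prefrontal cortex UCMS animals ran from 3.93 to 5.42, against 4.30 to 5.26 in controls, and the difference ran from 0.018 without S5 to 0.23 without BS2.

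Cebpb, the family member known for its part in liver and macrophage gene programs, gave the lowest value in blood. Its lowest, median and highest blood levels were 4.16, 4.92 and 5.69 in UCMS (n = 9), against 4.67, 5.45 and 6.20 in controls (n = 7). In UCMS 1 of 9 animals, BS1, lay above the control median, and S5, BS2 and S2 lay below every control. The difference was -0.52 (SE 0.23) (a percent difference of -30.4), with adjusted p = 0.458 by limma and an exact permutation p of 0.0541. Summed platelet genes were lower in UCMS blood as well, with 0 of 6 listed genes higher, a range of 9.25 to 10.84 in UCMS and of 10.52 to 11.08 in controls. Neutrophil genes were higher in UCMS for 0 of 7, with ranges of 8.10 to 9.24 in UCMS and 8.26 to 9.48 in controls and medians of 8.56 in UCMS and 8.43 in controls. Monocyte genes were higher in UCMS for 0 of 4, with ranges of 6.13 to 6.70 in UCMS and 6.35 to 6.96 in controls and medians of 6.38 in UCMS and 6.71 in controls, and their part in the Cebpb difference was not tested. Over the 16 blood libraries Cebpb had r = 0.088 with the platelet list and r = -0.28 with the neutrophil list (adjusted permutation p 0.891 and 0.629). In the brain regions Cebpb differed by -0.0098, 0.096 and -0.00075 in prefrontal cortex, hippocampus and hypothalamus, each under its SE. The hippocampal value was 0.012 without S3 and -0.042 (SE 0.092) without the choroid-plexus-rich libraries.

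Bcl6 is a transcriptional repressor known from germinal centres and from neuron formation. In hippocampus its lowest, median and highest levels were 4.79, 4.99 and 5.13 in UCMS and 4.61, 4.80 and 4.92 in controls. There 7 of 8 UCMS animals lay above the control median and 5 above every control. The difference was 0.16 (SE 0.060, exact permutation p = 0.0174, limma's adjusted p = 0.990), and 0.15 (SE 0.060) without the hemoglobin-rich libraries. It was 0.13 (SE 0.13) in prefrontal cortex, 0.14 (SE 0.11) in hypothalamus and -0.15 (SE 0.19) in blood. The prefrontal value was 0.071 without control C2, the choroid-plexus-rich library, and 0.086 without BS2.

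The Klf9 difference was 0.091 (SE 0.10) for prefrontal cortex, 0.085 (SE 0.054) for hippocampus, 0.11 (SE 0.082) for hypothalamus and 0.093 (SE 0.28) for blood. In hippocampus its lowest, median and highest levels were 7.99, 8.10 and 8.25 in UCMS, against 7.87, 7.99 and 8.23 in controls, so 7 of 8 UCMS animals lay above the control median but 1 above every control. Its exact permutation p, in that order of tissues, was 0.400, 0.125, 0.216 and 0.760. With 1 animal left out the prefrontal value ran from 0.030 without S5 to 0.15 without S7, and the hypothalamic one was 0.067 without C3 and 0.072 without S1.

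Plin4, a coat protein of lipid droplets, had the largest differences in prefrontal cortex and hippocampus. In hippocampus its lowest, median and highest levels were 3.71, 4.55 and 4.91 in UCMS and 3.61, 4.01 and 4.53 in controls. The UCMS animals fell into 2 ranges: S1 and BS2 at 3.71 and 3.76 lay among the lower controls, and the other 6 lay between 4.40 and 4.91, 5 of them above every control. The difference was 0.43 (SE 0.18), or 34.5%, with an exact permutation p of 0.0435 and adjusted p = 0.990 by limma. It was 0.36 (SE 0.26, exact permutation p = 0.227) in prefrontal cortex and 0.36 (SE 0.22, exact permutation p = 0.146) in hypothalamus. In hypothalamus 7 of 8 UCMS animals lay above the control median, though controls C2 and C5 at 4.90 were higher than 6 of the 8. Without the hemoglobin-rich libraries the hippocampal difference was 0.37 (SE 0.21), with limma's unadjusted p at 0.10. Without the choroid-plexus-rich libraries it was 0.23 (SE 0.21), with means of 4.32 in UCMS (n = 6) and 4.09 in controls (n = 5). In prefrontal cortex control C2, the choroid-plexus-rich library, had the highest Plin4 of all (5.16) and the highest summed myelin level (11.14); without it the difference was 0.52 (SE 0.23, adjusted p = 1.0 by limma), and without control C8 it was 0.24.

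Fam107a had narrow spreads, so small differences stood out more. In hippocampus its lowest, median and highest levels were 7.80, 7.87 and 8.05 in UCMS, against 7.63, 7.79 and 7.88 in controls. All 8 UCMS animals lay above the control median, 3 lay above every control and 5 controls lay below every UCMS animal. The difference was 0.11 (SE 0.047), or 8.29%, with an exact permutation p of 0.0166. In hypothalamus the levels were 7.15, 7.31 and 7.52 in UCMS and 6.97, 7.18 and 7.45 in controls, a difference of 0.16 (SE 0.066) with an exact permutation p of 0.0309. There 7 of 8 UCMS animals lay above the control median. Without the hemoglobin-rich libraries the differences were 0.090 (SE 0.045) in hippocampus and 0.18 (SE 0.084) in hypothalamus, with limma's unadjusted p at 0.064 and 0.051, both above 0.05. Without the choroid-plexus-rich libraries the hippocampal difference was 0.16 (SE 0.051). In prefrontal cortex the difference was 0.027 (SE 0.093, exact permutation p = 0.791). By limma the adjusted p was 0.990 or more in hippocampus, hypothalamus and prefrontal cortex.

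Sult1a1, a sulfotransferase that conjugates phenols and phenolic drugs, was higher in hypothalamus, where its lowest, median and highest levels were 3.15, 3.60 and 4.63 in UCMS and 2.76, 3.14 and 4.03 in controls. All 8 UCMS animals lay above the control median, but 1, S2 at 4.63, lay above every control. The difference was 0.46 (SE 0.21), or 37.6%, and 0.32 without S2, with an exact permutation p of 0.0572 and adjusted p = 1.0 by limma. Genes of the meninges, the connective tissue around the brain, moved with it: 7 of 7 listed genes had a higher mean in UCMS hypothalamus, with summed levels of 5.99 to 8.70 in UCMS and 6.09 to 7.82 in controls, medians 7.35 and 6.57. With the meningeal genes as a covariate (an alternative added after seeing the data) the difference was 0.27 (SE 0.099). In hippocampus, where 0 of 7 meningeal genes were higher in UCMS, Sult1a1 differed by 0.098 (SE 0.097), and by 0.049 without BS2. With the meningeal covariate 7 of the 10 genes had an unadjusted limma p under 0.05 in hippocampus, none at an adjusted p of 0.05. Of all 14015 genes 762 had one with that covariate, against 414 without it. In prefrontal cortex Sult1a1 ran from 2.70 to 3.52 in UCMS and from 2.35 to 3.52 in controls and was too low for the genome-wide test.

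To compare animals rather than libraries, the 3 brain regions of each animal were averaged, which kept 13517 genes and 9 of the 10. All 9 had a higher mean in UCMS (51% of all genes), with a median difference of 0.12, against 0.0011 over all genes. By limma 0 of 9 passed an adjusted p of 0.05 (0% of all genes), and 2 of 9, Fam107a and Bcl6, had an unadjusted p under 0.05 (3.62%). The Fam107a mean was 7.71 ± 0.076 in UCMS and 7.61 ± 0.076 in controls (SD, n = 8 each, exact permutation p = 0.0201), and all 8 UCMS animals lay above the control median. Bcl6 averaged 4.52 ± 0.11 in UCMS and 4.37 ± 0.16 in controls (SD, n = 8 each, exact permutation p = 0.0539). Plin4 differed by 0.38 (SE 0.19) and Sgk1 by 0.25 (SE 0.16). Without the 6 animals with a choroid-plexus-rich library, which left 6 UCMS and 4 control animals, 0 of 9 had an unadjusted p under 0.05 (2.32% of all genes) and 8 of 9 had a higher mean in UCMS; Fam107a then differed by 0.10 (SE 0.050), Bcl6 by 0.13 (SE 0.069) and Sgk1 by 0.40 (SE 0.20).

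Leaving out the 4 animals with a hemoglobin-rich library gave 7 of 9 genes with an unadjusted p under 0.05 in the brain mean, against 2 of 9 with them, where 6.85% of all genes had one. The 7 genes were Nfkbia, Sgk1, Klf9, Fam107a, Cebpd, Bcl6 and Plin4, each higher in UCMS. Sgk1 averaged 5.24 in UCMS and 4.82 in controls over these animals (n = 6 each), a difference of 0.42 (SE 0.14), and Nfkbia 4.35 in UCMS and 4.15 in controls, a difference of 0.20 (SE 0.065). Limma's adjusted p was 0.699 for all 7, so none passed. The animals left out include BS2 and S7, the UCMS animals lowest in Sgk1, and C7, the control with the most values above the control median. Without BS2 alone 5 of 9 had an unadjusted p under 0.05 (3.84% of all genes): Klf9, Nfkbia, Sgk1, Fam107a and Plin4.

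Single animals differed in how many of their 30 brain values (10 genes in 3 regions) lay above the control median. UCMS animals S2 and S5 had 25 such values, S4 23, S3 22, S1 21, S8 17, S7 16 and BS2 11. Controls ran from 10 in C3 to 21 in C7. Thus 4 UCMS animals exceeded every control, and BS2 had fewer than all but 1 control. The genes of an animal share its libraries, so these counts are a description.

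**Figure D2:**
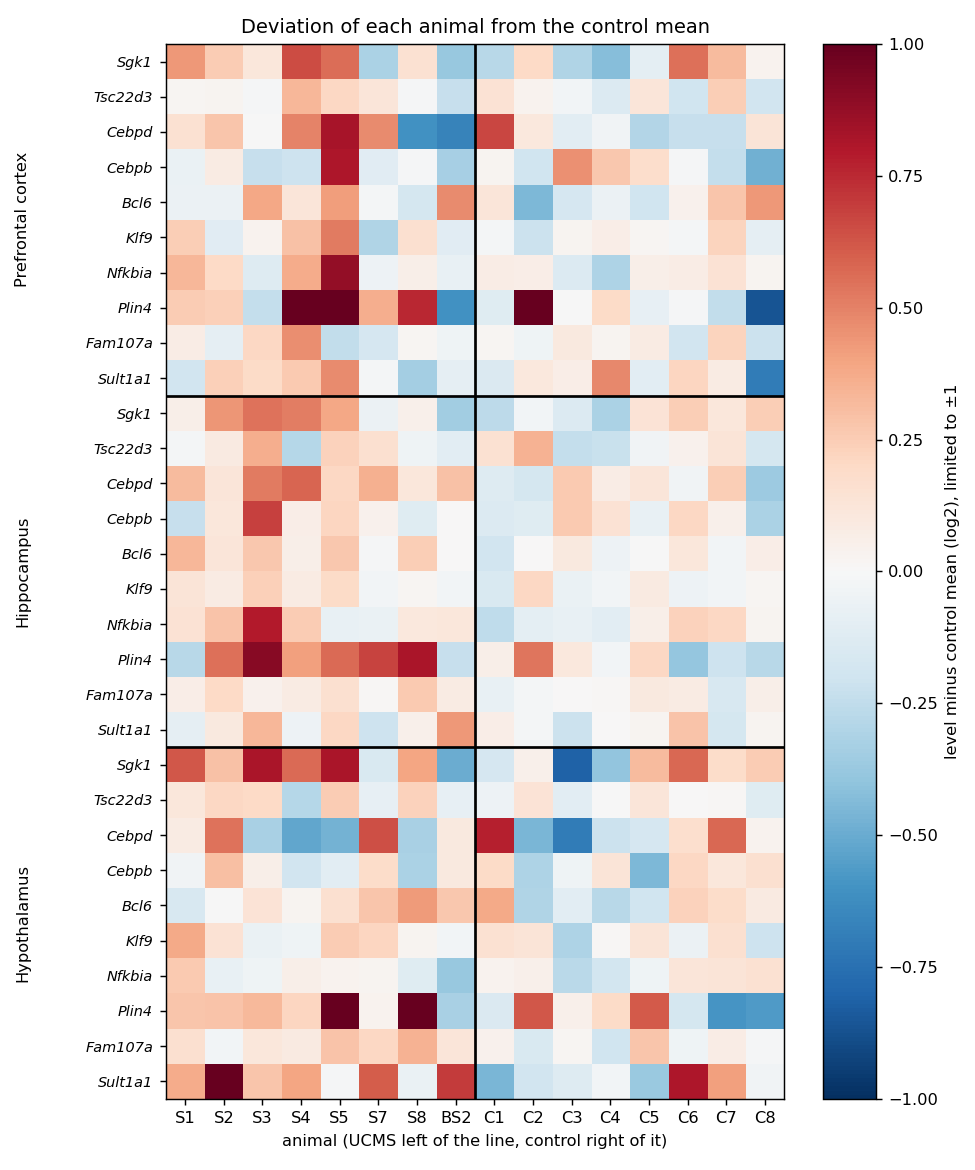
Deviation of each brain value from the control mean of its gene and region (log2, colour scale limited to 1 in either direction), with genes by region down the side and animals across, UCMS left of the line. S4 and S5 are high in most prefrontal rows and S2 to S5 in most hippocampal rows, while BS2 is low in Sgk1 and Plin4 in all 3 regions.

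Other genes with a known glucocorticoid response, 30 on the list, were mostly higher in the brain of UCMS animals without passing the test. Of those tested, 20 of 26 had a higher mean in UCMS prefrontal cortex (median difference 0.073), 21 of 26 in UCMS hippocampus (0.080), 23 of 26 in UCMS hypothalamus (0.091) and 5 of 12 in UCMS blood (-0.10). Over all genes tested the shares with a higher mean in UCMS were 52%, 50.1%, 50.5% and 48.5% in that order, with median differences of 0.0056, 0.00038, 0.00075 and -0.010. By limma 0 passed an adjusted p of 0.05 in any tissue. At an unadjusted limma p under 0.05 there were 0 of 26 in prefrontal cortex (2.18% of all genes) and 1 of 26 in hippocampus (2.95%). There were 1 of 26 in hypothalamus (2.12%) and 0 of 12 in blood (10.8%). In the brain mean 24 of 26 had a higher mean in UCMS. The 1 gene at such a p there (3.62% of all genes), Tiparp, was lower in UCMS (-0.12). The list was chosen with earlier results of these data known, and its genes share the libraries of the genes above. Its counts are therefore a description and not independent evidence. The lowest unadjusted p values in prefrontal cortex belonged to the interleukin receptor chain Il6ra (0.12), the ADP-ribosyltransferase Tiparp (-0.21) and the sestrin Sesn1 (0.070), given with their log2 differences. In hippocampus they belonged to the zinc finger factor Zbtb16 (0.15), the mTOR inhibitor Ddit4 (0.18) and the arrestin-domain gene Arrdc2 (0.25). In hypothalamus they belonged to the antiproliferative gene Tob2 (0.15), the receptor co-chaperone Fkbp5 (0.15) and the hypoxia factor Hif3a (0.40). In blood they belonged to annexin Anxa1 (-0.35), the scaffold Nedd9 (-0.28) and the phosphatase Dusp1 (-0.32). Of the receptors Nr3c1 and Nr3c2 and the corticosterone-regenerating enzyme Hsd11b1, 1 of 3 had a higher mean in UCMS prefrontal cortex, 1 of 3 in UCMS hippocampus and 0 of 3 in UCMS hypothalamus. In blood Nr3c1 stood at 3.75 ± 0.21 in UCMS (SD, n = 9) and 3.99 ± 0.19 in controls (n = 7), with adjusted p = 0.495 by limma.

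Whether the UCMS difference itself differed between tissues was tested within animals, on levels of tables that had been normalized separately. None of the genes passed in any of the 6 pairs of tissues by limma (adjusted p of 0.05, passed by 0% of all genes, or by 0.014% between hypothalamus and blood). At an unadjusted p under 0.05 there was 0 of 9 between prefrontal cortex and hippocampus (1.61% of all genes), 0 of 9 between prefrontal cortex and hypothalamus (2.43%) and 0 of 10 between hippocampus and hypothalamus (2.26%). Against blood it was 1 of 7, Cebpb, for each brain region (8.7%, 9.9% and 7.53% for prefrontal cortex, hippocampus and hypothalamus). For Cebpb the contrasts were as follows: its UCMS difference was higher by 0.75 (SE 0.26) in hippocampus than in blood, by 0.67 (SE 0.30) in prefrontal cortex than in blood and by 0.61 (SE 0.26) in hypothalamus than in blood. Limma's adjusted p values were 0.457, 0.572 and 0.636. Which genes had an unadjusted p under 0.05 by limma moved with the libraries used. Without the animals with a hemoglobin-rich library (6 UCMS and 5 control animals) the 1 gene was Cebpd for prefrontal cortex against blood (10.6% of all genes) and Bcl6 for hypothalamus against blood (9.17%), while Cebpb had an unadjusted limma p of 0.085 and 0.091 there. For hippocampus against blood there were 3, Cebpd, Bcl6 and Cebpb (11.9%). Without the BS animals it was Cebpb for prefrontal cortex (8.98%), Bcl6 for hypothalamus (8.42%) and the same 3 genes for hippocampus (10.7%). Limma's adjusted p was 0.365 or more in each.

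The next question was whether an animal with a high level in one tissue had a high level in another. Over 51 relations (genes by pairs of tissues, 16 animals with brain regions and 15 with brain and blood), 5 passed an adjusted p of 0.05, and all 5 belonged to Sgk1 or Plin4 between brain regions. Sgk1 correlated between prefrontal cortex and hippocampus (Pearson's r = 0.76, Spearman's rho = 0.72), prefrontal cortex and hypothalamus (r = 0.82, rho = 0.76) and hippocampus and hypothalamus (r = 0.83, rho = 0.81). Their permutation p values were 0.00062, 0.00011 and 0.00017, or 0.0105, 0.00434 and 0.00434 adjusted over 51. Of the 10 genes 2, 2 and 3 had an r over 0.5 in these pairs of regions, against 6.57%, 7.39% and 8.36% of all genes. The median r over all genes was 0.070, 0.11 and 0.10. The permutation test was not run over all genes, so the share of them that would pass is unknown. Without the 2 animals farthest from the median of the first region, r for Sgk1 was 0.67, 0.81 and 0.76.

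The relation of Sgk1 was also computed apart from the treatment. Centred on the means of UCMS and control animals, r was 0.74, 0.81 and 0.80 in the same order of regions (adjusted permutation p 0.0230, 0.00561 and 0.00637). Within UCMS animals alone it was 0.73, 0.83 and 0.81, and within controls alone 0.78, 0.79 and 0.80 (n = 8 each, none past the adjusted exact permutation test). Without the 2 farthest animals r was 0.16, 0.23 and 0.52 within UCMS, so that relation rests on those animals, and was 0.59, 0.64 and 0.89 within controls. Without the 4 animals with a hemoglobin-rich library r was 0.68, 0.79 and 0.77 (n = 12, adjusted permutation p 0.128, 0.0538 and 0.0538). Without the 6 animals with a choroid-plexus-rich library r was 0.92, 0.91 and 0.82 (n = 10, adjusted permutation p 0.00306, 0.0326 and 0.0662). The animals low in Sgk1 in every region came from both groups: UCMS animals BS2 (prefrontal cortex 4.51, hippocampus 4.46, hypothalamus 4.25) and S7 (4.57, 4.75 and 4.59), and control animals C4 (4.46, 4.48 and 4.34), C3 (4.58, 4.67 and 3.93) and C1 (4.61, 4.54 and 4.57). The animals high in every region were UCMS animals S4 (5.54, 5.32 and 5.30) and S5 (5.44, 5.19 and 5.55) and control C6 (5.44, 5.05 and 5.31). With blood, r for Sgk1 over all animals did not exceed 0.27 in any region, and 0 of 7 genes had an r over 0.5 between blood and prefrontal cortex (2.54% of all genes), hippocampus (2.8%) or hypothalamus (2.19%). Between prefrontal cortex and blood it was -0.58 within UCMS animals (n = 8) and 0.91 within controls (n = 7), with adjusted exact permutation p of 0.725 and 0.167, and the difference between these was not tested.

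Plin4 correlated between prefrontal cortex and hypothalamus (r = 0.75, rho = 0.70, permutation p = 0.00092, adjusted 0.0117) and between hippocampus and hypothalamus (r = 0.69, rho = 0.71, permutation p = 0.00356, adjusted 0.0363). Between prefrontal cortex and hippocampus r was 0.57 (adjusted permutation p = 0.165). Without the 2 animals farthest from the median, r was 0.65 and 0.66 in the 2 pairs that passed. Centred on treatment means, r was 0.72 and 0.62 (adjusted permutation p 0.0230 and 0.103), so the second relation no longer passed. Without the 6 animals with a choroid-plexus-rich library r was 0.81 and 0.69 (n = 10, adjusted permutation p 0.0662 and 0.190), and neither passed. UCMS animal S8 was high in all 3 regions (prefrontal cortex 4.76, hippocampus 4.81, hypothalamus 5.30) and BS2 was low (3.41, 3.76 and 3.96). Control C2 was high in all 3 (5.16, 4.53 and 4.90) and control C8 low (3.15, 3.71 and 3.71). The other genes had no relation past the threshold; the closest was Tsc22d3 between hippocampus and hypothalamus (r = 0.61, adjusted permutation p = 0.103).

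**Figure D3:**
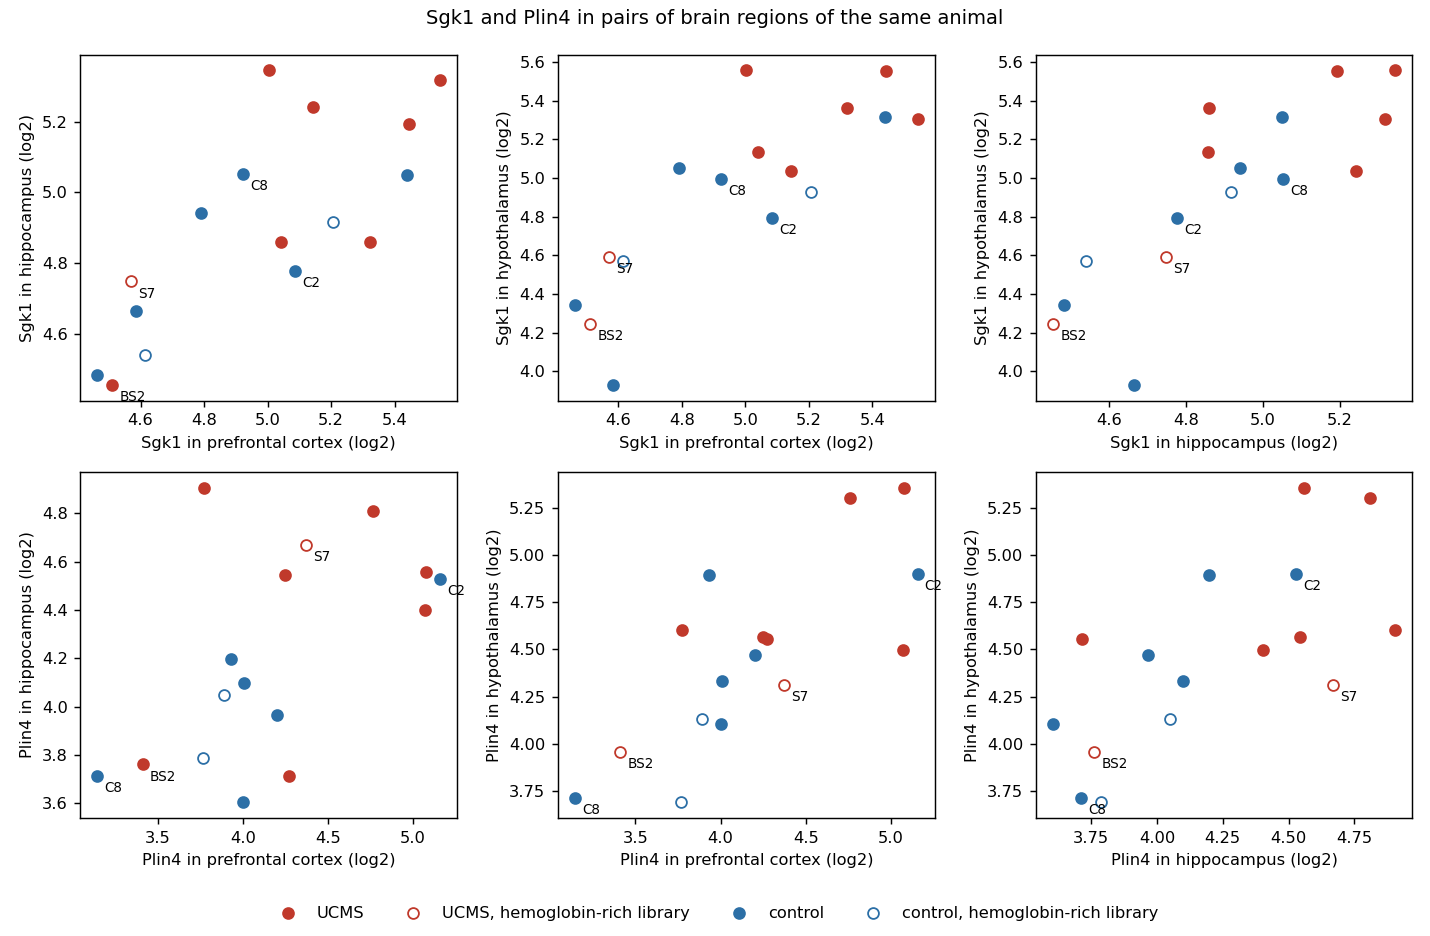
Log2 level of Sgk1 (top row) and Plin4 (bottom row) in pairs of brain regions, 1 point per animal, UCMS red and control blue, open where either library was hemoglobin-rich. For Sgk1 the points of both groups overlap along a rising trend with r of 0.76 to 0.83; for Plin4 the spread is wider, with r of 0.57 to 0.75.

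Of the other glucocorticoid-responsive genes, given as a description, 3 of 26 had an r over 0.5 between prefrontal cortex and hippocampus, 4 of 26 between prefrontal cortex and hypothalamus and 7 of 27 between hippocampus and hypothalamus. Hif3a was over 0.5 in all 3 pairs, with r of 0.63, 0.75 and 0.72. The median r of the list was 0.19, 0.23 and 0.19. Among all genes 6.57%, 7.39% and 8.36% had an r over 0.5 in these pairs, with a median r of 0.070, 0.11 and 0.10.

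Pairs of the 10 genes within a tissue were compared over animals as well, 156 pairs in all, which share libraries. The median r was 0.29 over prefrontal pairs, 0.34 over hippocampal pairs, 0.12 over hypothalamic pairs and 0.091 over blood pairs, while the median r of the 10 genes with any gene of the table lay between -0.040 and 0.041. Sgk1 with Nfkbia in prefrontal cortex was the 1 pair that passed (r = 0.73, rho = 0.86, permutation p = 0.00017, adjusted 0.0265, r = 0.66 without the 2 farthest animals). Centred on treatment means it had r = 0.71 with an adjusted permutation p of 0.0515. The same pair had r = 0.67 in hippocampus and 0.65 in hypothalamus, with adjusted permutation p of 0.110 and 0.126. In blood Cebpb and Nfkbia had r = 0.74 (adjusted permutation p = 0.105), and centred on treatment means they had r = 0.82, which passed (adjusted permutation p = 0.0234).

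Cell-type genes moved with several of the 10 genes over animals. Of 148 relations with the summed level of a marker list, added after seeing the data, 9 passed an adjusted permutation p of 0.05, and 10 when centred on treatment means. All were computed with every library of a tissue, the hemoglobin-rich and choroid-plexus-rich ones included. The share of all genes that follow these lists was not computed. Whether such relations are particular to the 10 genes is therefore unknown. Fam107a followed the astrocyte list in prefrontal cortex (r = 0.91, rho = 0.92, adjusted permutation p = 0.00074) and hippocampus (r = 0.76, rho = 0.64, adjusted permutation p = 0.0138 for r and 0.116 for rho), while in hypothalamus r was 0.37. Of the 8 astrocyte genes, 2 had a higher mean in UCMS prefrontal cortex, 3 in UCMS hippocampus and 4 in UCMS hypothalamus. The median of their summed level was 10.67 in UCMS and 10.71 in control prefrontal cortex (ranges 10.6 to 10.9 and 10.6 to 10.8), 10.89 and 10.85 in UCMS and control hippocampus (10.77 to 10.98 and 10.72 to 10.90), and 10.88 and 10.86 in UCMS and control hypothalamus (10.7 to 11.2 in both). The astrocyte genes were also used as a covariate, an alternative added after seeing the data. With it the Fam107a difference was 0.10 (SE 0.039) in hippocampus and 0.16 (SE 0.061) in hypothalamus. Bcl6 also followed astrocyte genes in hippocampus (r = 0.76), where its difference with that covariate was 0.15 (SE 0.055).

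Plin4 followed the myelin list in all 3 brain regions, with r of 0.78 for prefrontal cortex, 0.76 for hippocampus and 0.77 for hypothalamus (rho 0.77, 0.77 and 0.74, adjusted permutation p 0.0138 in each). In prefrontal cortex control C2, the choroid-plexus-rich library, had both the highest Plin4 (5.16) and the highest summed myelin level (11.14). The r without that library was not computed. Myelin genes had a higher mean in UCMS for 2 of 8 prefrontal, 6 of 8 hippocampal and 1 of 8 hypothalamic values. Their summed levels ran from 9.43 to 10.70 in UCMS and 9.83 to 11.14 in control prefrontal cortex, from 9.89 to 10.77 and 10.03 to 10.47 in UCMS and control hippocampus, and from 10.58 to 11.83 and 10.64 to 12.07 in UCMS and control hypothalamus. With the myelin genes as a covariate, the Plin4 difference was 0.39 (SE 0.14) for prefrontal cortex, 0.34 (SE 0.098) for hippocampus and 0.40 (SE 0.11) for hypothalamus. In the mean of the brain regions it was 0.39 (SE 0.10), where without the covariate it was 0.38 (SE 0.19). Limma's adjusted p stayed at 0.936 or more. Between regions the myelin list had r of 0.24, 0.52 and 0.21, none past the adjusted permutation test, and 0.17, 0.58 and 0.56 without the 2 animals farthest from the median; in the same pairs Plin4 had 0.57, 0.75 and 0.69, and 0.50, 0.65 and 0.66 without such animals. The difference between Plin4 and the list was not tested. The remaining relations that passed were Sult1a1 with the meningeal list in hypothalamus (r = 0.89), Plin4 with the astrocyte list in hypothalamus (r = 0.75) and Tsc22d3 with the astrocyte list in hypothalamus (r = 0.69).

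**Figure D4:**
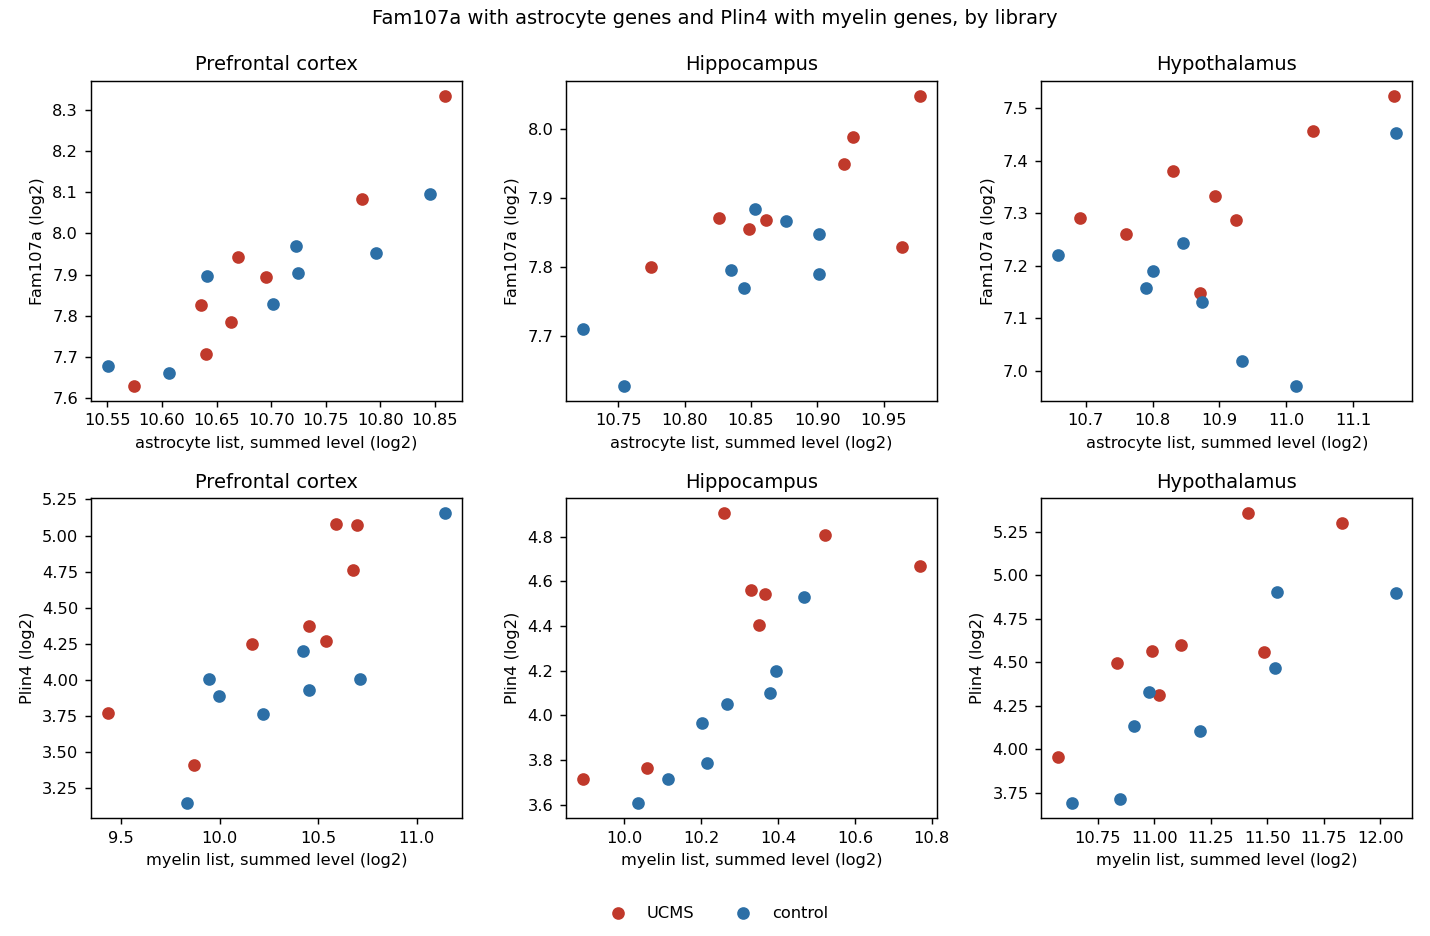
Log2 level of Fam107a against the summed level of 8 astrocyte genes (top row) and of Plin4 against that of 8 myelin genes (bottom row), by region, 1 point per library, UCMS red and control blue. Fam107a rises with the astrocyte genes in prefrontal cortex (r = 0.91), and Plin4 rises with the myelin genes in each region (r = 0.76 to 0.78), with most UCMS points above control points at a like myelin level.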

How the data were processed

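RNA-seq of 64 libraries was used as deposited, 1 table per tissue. Strand-aware libraries started from 100 ng of RNA freed of ribosomal RNA, per the labels' protocols. The submitters' processing notes name the build GRCm38.p4; the aligner and counter were not stated in the labels or headers used. The values the authors deposited were read as log2 levels, quantile normalized between the libraries of a table; scale and normalization were inferred from the values, and depth is unknown. Whole reads were not recovered, so no count model was run. The 10% of genes with the lowest mean were left out (14127, 14015, 14539 and 7947 remained), and limma 3.58.1 in R 4.3.3 with a trended variance compared UCMS with control within a tissue, two-sided, with Benjamini-Hochberg adjustment over all genes. Relations used 100000 permutations, or all of them with 9 or fewer animals, in Python 3.11.15. The script was tested on simulated data. Named genes were the 10, and the 3 genes of the responsive list with the smallest p per tissue; other lists are given by counts. Members, lists and alternatives were chosen with earlier results of these data known.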

Additional observations from a re-analysis of the deposited data

Results flagged for a closer look

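Over 74 groups (a gene in the UCMS or control animals of a tissue), 4 held an animal whose gap to its nearest neighbour was large for the range of the group; chance flags about 1 in 20 groups, or 3.7 here. In prefrontal cortex Cebpb stood at 7.10 in UCMS animal S5, above 6.38 in the next UCMS animal, and Cebpd at 5.26 in control animal C1, above 4.72 in the next control. In hippocampus Nfkbia stood at 4.96 in UCMS animal S3, above 4.45 in the next. That library was choroid-plexus-rich and also had the highest hippocampal Sgk1, Cebpb, Plin4 and Tsc22d3, and the part of choroid plexus RNA in this was not tested. In blood Tsc22d3 stood at 3.46 in UCMS animal S8, below 4.19 in the next. C1 was among the animals with hemoglobin-rich brain libraries, and the part of that in its Cebpd level was not tested.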

How the results depend on the processing

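Under other settings 559 recomputed member differences kept their direction and their side of the test and 16 reversed. With 1 animal left out 682 did and 38 reversed. Other gene filters, a fit without the variance trend, a robust fit and, in brain, the replicate number as a block leave a difference unchanged by construction. Their part of the 559 therefore says nothing of stability. No member passed the adjusted test in any setting, so the side of the test never moved. These reversed differences were within their standard error, except Cebpb in the brain mean without the choroid-plexus-rich libraries, at -0.12 (SE 0.090). Without those libraries hippocampal Cebpb was -0.042 and Tsc22d3 -0.044. Cebpb in prefrontal cortex was 0.0094 without the hemoglobin-rich libraries, 0.037 without the BS animals and 0.034 with the meningeal covariate. With array weights Cebpb was -0.021 in hippocampus and -0.064 in the brain mean, and blood Tsc22d3 and Nfkbia were 0.045 and 0.091. In hypothalamus, without the hemoglobin-rich libraries, Cebpd was 0.057, Cebpb 0.0020 and Nfkbia 0.048. There Cebpb was 0.0047 with the endothelial and 0.0037 with the astrocyte covariate, and Nfkbia 0.022 without the BS animals. With 1 animal left out, the differences that changed sign ran in hypothalamus from -0.065 to 0.044 (Cebpb), -0.13 to 0.078 (Cebpd) and -0.069 to 0.022 (Nfkbia), in the brain mean from -0.011 to 0.061 (Cebpb), in prefrontal cortex from -0.13 to 0.056 (Cebpb) and -0.035 to 0.066 (Fam107a), and in blood from -0.038 to 0.27 (Klf9), -0.11 to 0.084 (Nfkbia) and -0.13 to 0.050 (Tsc22d3).

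The count of members at an unadjusted p under 0.05 was 1 in prefrontal cortex with the myelin covariate and without the choroid-plexus-rich library. It was 0 in the brain mean without such libraries. In hippocampus it was 7 with the meningeal covariate (762 of 14015 genes, against 414 in the main fit) and 2 without the hemoglobin-rich libraries. In hypothalamus it was 1 with the lowest 25% left out, with array weights or without the hemoglobin-rich libraries. In blood it was 0 with array weights. In the brain mean the count was 7 without the hemoglobin-rich libraries and 5 without the BS animals. With 1 animal left out it ran from 0 to 1 in prefrontal cortex, 2 to 5 in hippocampus, 0 to 3 in hypothalamus, 0 to 1 in blood and 1 to 5 in the brain mean. Members with a higher mean in blood numbered 1 with the lowest 25% left out and 4 with array weights, and 1 to 4 with 1 animal left out; genes at an adjusted p under 0.05 in blood then numbered 0 to 1. The single gene whose difference differed between hypothalamus and blood was lost (0) without the hemoglobin-rich libraries. Of the 5 relations between tissues, 0 passed in control animals only, in UCMS animals only or without the hemoglobin-rich animals, and 0 of the pairs of members passed without those libraries; each of these has fewer animals. Without the choroid-plexus-rich animals 2 passed, both of Sgk1. By the exact test 42 of 45 differences fell on the same side of 0.05 as by limma.

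With the replicate number as a block, the count in the brain mean was 4 of 9 (581 of 13517 genes, against 489 in the main fit). Deviations of same-numbered animals had r of -0.13 to 0.55 in prefrontal cortex and -0.37 to 0.51 in hippocampus. The r was -0.45 to 0.30 in hypothalamus and -0.26 to 0.25 in blood. In that order of tissues 6 of 8, 3 of 8, 3 of 8 and 2 of 7 pairs had an r over 0.1. They were not compared with pairs of unlike number, so whether the numbers pair the animals was not tested. Depth is unknown, so low genes such as Sult1a1 carry counting error that could not be sized.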
